A study of Mus musculus with 5 samples.

Results

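In mouse embryonic stem cells treated with the GSK3 inhibitor CHIR99021, 6568 chromatin regions carried a β-catenin peak when the tagged protein was captured on streptavidin, while neither of the other peak tables had a peak there. The regions were chosen by the deposited peak calls. Intervals of the 3 ChIP libraries that overlapped or touched were merged, which gave 33485 regions in all, and a region was kept when every peak in it came from the CHIR99021 streptavidin table. The 6568 are 19.6% of all regions (exact 95% interval 19.19 to 20.04%). They hold 41.2% of the 15947 CHIR99021 streptavidin peaks (40.4 to 42.0%). A further 9216 of those peaks lay in the 9113 regions that both CHIR99021 tables share, termed both-table regions here, and 163 met only a DMSO peak. Each of the 6568 regions consists of a single peak, so region and peak have the same bounds.

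β-Catenin is the transcriptional effector of canonical Wnt signalling. GSK3 marks it for degradation, and inhibitors such as CHIR99021 let it accumulate and enter the nucleus. It has no DNA-binding domain of its own and reaches chromatin mainly through the TCF and LEF factors. In embryonic stem cells this pathway supports self-renewal and, in other settings, the onset of mesendoderm genes.

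All libraries came from 1 V6.5 line, a male mouse embryonic stem cell line, whose endogenous Ctnnb1 gene carries the Ctnnb1-Biotin-3xFLAG knock-in. The labels do not say whether the line is 1 clone. The line also expresses BirA, the enzyme that biotinylates the tag, per the labels' protocol. Cells were grown in serum and LIF on feeders from DR4 mice, and cells that still floated after time on gelatinized plates were taken as the stem cell fraction, with 10000000 cells per ChIP. The CHIR99021 groups received 3 µM, for 16 hours per the protocol and for 24 hours per the series text, and were captured with anti-FLAG or with streptavidin. The extraction text writes the dose as 3 mM, and the treatment text is the same for every sample, the DMSO ones included, whose own label reads DMSO (3uM). The remaining ChIP group is labelled DMSO with streptavidin capture, although its run and its peak table are named for FLAG while its read file is named for biotin, so which capture it had cannot be settled here. The protocol text also names cells with BirA alone, from which no ChIP was analysed here. With 1 library to a group, replicate error could not be estimated and no test across samples was possible. The libraries held 11934863 unique tags (CHIR99021 streptavidin) and 16100920 unique tags (CHIR99021 anti-FLAG), per the file headers. The DMSO depth is unknown. A table lists only places that passed its own p-value cutoff, so it holds no tag count for a place without a peak. A streptavidin-only region is therefore a place without an anti-FLAG or DMSO call, and how many anti-FLAG tags fell there was not measured in these files.

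The streptavidin-only regions were small and lay close to the calling limit. They held a median of 22 raw tags (interval of the median 21 to 22), with a middle 50% from 16 to 33 and a full range from 13 to 409. Streptavidin peaks of both-table regions held a median of 46 tags, with a middle 50% from 30 to 74. The median length was 745 bp (737 to 754), against 1038 bp in both-table regions. The density of tags differed less than their number, at a median of 29.5 tags per kb against 42.4. In all, the 6568 peaks covered 5.61 Mb, which is 34.0% of the bases in CHIR99021 streptavidin peaks, and held 181899 tags, which is 23.1% of the tags in those peaks and 1.52% of the library's unique tags. These intervals treat each peak as an independent draw and cover counting error only.

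**Figure D1:**
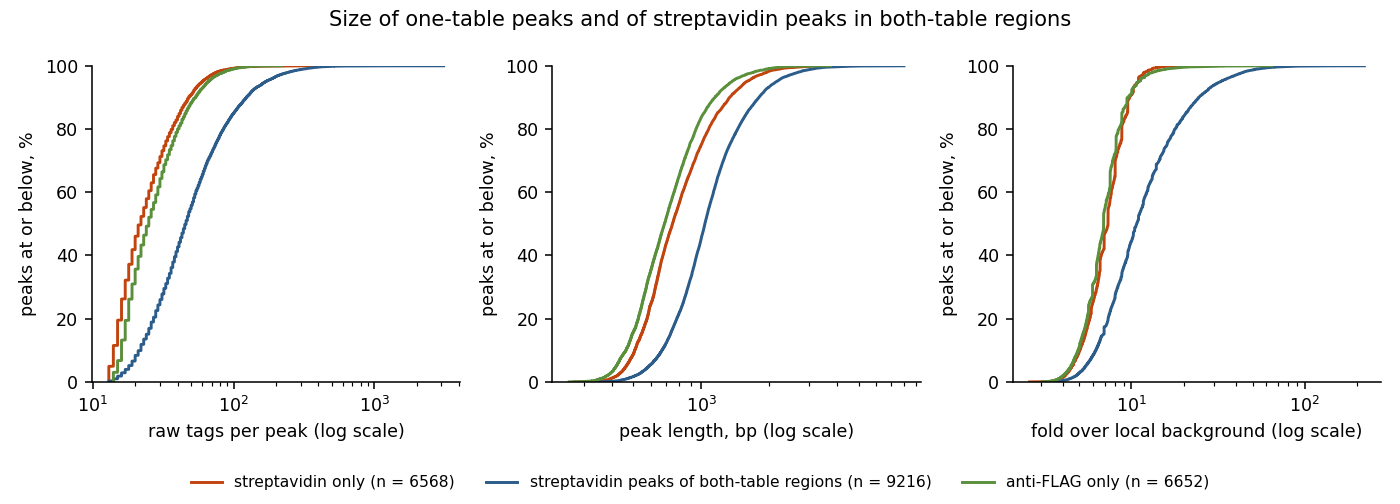
Cumulative share of peaks (vertical axis, %) by raw tags, length in bp and fold over the local background (horizontal axes, log scale), for streptavidin-only regions, streptavidin peaks of both-table regions and anti-FLAG-only regions. The streptavidin-only curve lies to the left of the both-table curve in all 3 panels, with medians of 22 against 46 tags, 745 against 1038 bp and 7.32 against 10.7 fold.

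Fold enrichment, the authors' ratio of a peak to its local background, had a median of 7.32 in the streptavidin-only regions and reached 22.7 at most. In both-table regions the median was 10.7 and the highest value 221.11. The p score, which is 10 times −log10 of the p-value and starts at 50 by the cutoff, had a median of 60.5 against 127. Of the 6568 regions, 3178 (48.4%) scored under 60, against 25.9% of all streptavidin peaks. The false discovery rate that MACS lists had a median of 2.41% against 0.13%.

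Fewer of these regions than of all streptavidin peaks passed stricter limits. Since the rule used the same peak calls, these counts describe the regions and test nothing. At a false discovery rate of at most 1%, 1558 of them passed (23.7%, interval 22.7 to 24.8%), against 55.4% of all streptavidin peaks and 78.2% of those in both-table regions. At a fold of at least 10 it was 602 (9.17%), against a background of 35.8%. At a p score of at least 100 it was 435 (6.62%), against a background of 38.9%. With at least 20 tags it was 3820 (58.2%), against a background of 78.8%. A false discovery rate listed as 0 was reached by 29 of them (0.442%), against a background of 21.6% and against 3412 peaks (37.0%) of both-table regions.

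The share of streptavidin peaks without a partner fell at each step of signal. Among peaks with a p score from 50 to under 55, 78.8% were streptavidin-only (77.1 to 80.5%). From 80 to under 100 it was 39.2%, and from 150 upward 1.48% (1.12 to 1.90%), which is 58 of 3928 peaks. By raw tags it went from 89.0% (86.7 to 91.0%) of peaks with 13 or 14 tags to 16.7% at 50 to under 100 tags and 2.15% (0.868 to 4.37%) at 200 or more.

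**Figure D2:**
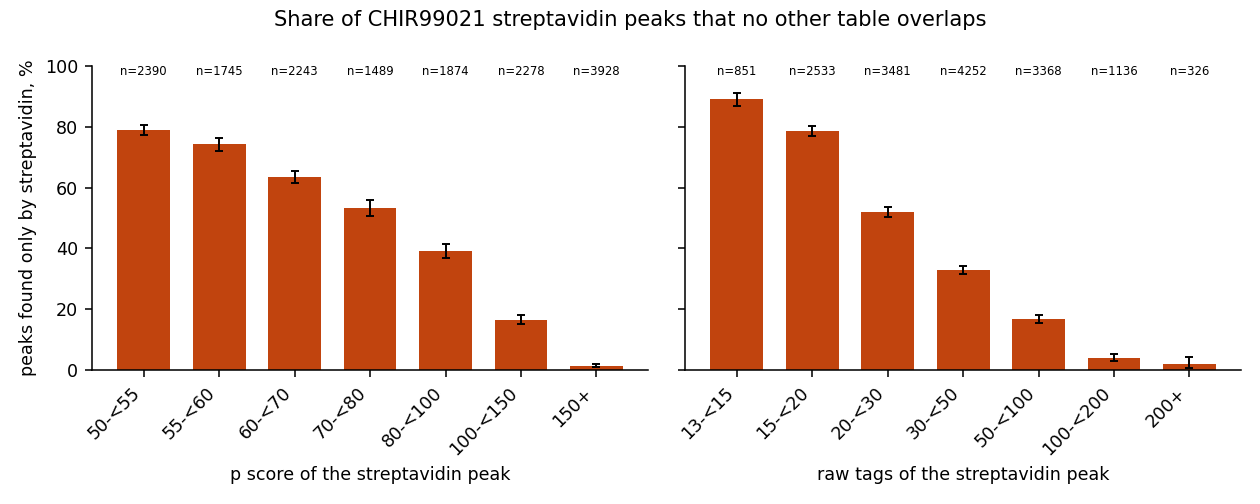
Share of CHIR99021 streptavidin peaks found only by streptavidin (bars, %), by p score (left) and raw tags (right), with exact 95% intervals and the number of peaks in each class above. The share falls from 78.8% to 1.48% by p score and from 89.0% to 2.15% by tags.

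At a like low p score the streptavidin-only peaks were smaller than their both-table counterparts, while fold was close. From 50 to under 55 they had medians of 17 tags, 651 bp and 6.59 fold, and both-table peaks 23 tags, 811 bp and 6.49 fold. From 80 to under 100 the medians were 30 against 33 tags, 914 against 938 bp and 8.05 against 8.79 fold. From 150 upward they parted in all these measures, with 50 against 77 tags and 11.46 against 17.38 fold. That class has no upper limit, and its p scores were not alike. They reached 259.70 in streptavidin-only peaks and 3230.05 in both-table peaks.

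Tags and fold ran in opposite directions in the 2 sets. In both-table regions the streptavidin peaks with more tags also had higher folds (Spearman's rho 0.41 over 9216 peaks). In the streptavidin-only regions those with more tags had lower folds (rho −0.40 over 6568 peaks). Anti-FLAG-only peaks also gave a negative value (rho −0.27 over 6652 peaks). These are descriptions across peaks of 1 library each, and the p-value cutoff together with the choice of regions bounds which pairs of tags and fold can occur. With 13 or 14 tags the median fold was 8.05 in both sets. With 50 to under 100 tags it was 5.33 in streptavidin-only regions and 11.84 in both-table regions, and with 100 to under 200 tags 4.49 and 18.54. The streptavidin-only peaks with 100 or more tags numbered 52 (0.792%, against 9.17% of all streptavidin peaks), and 38 of them had folds under 5.

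**Figure D3:**
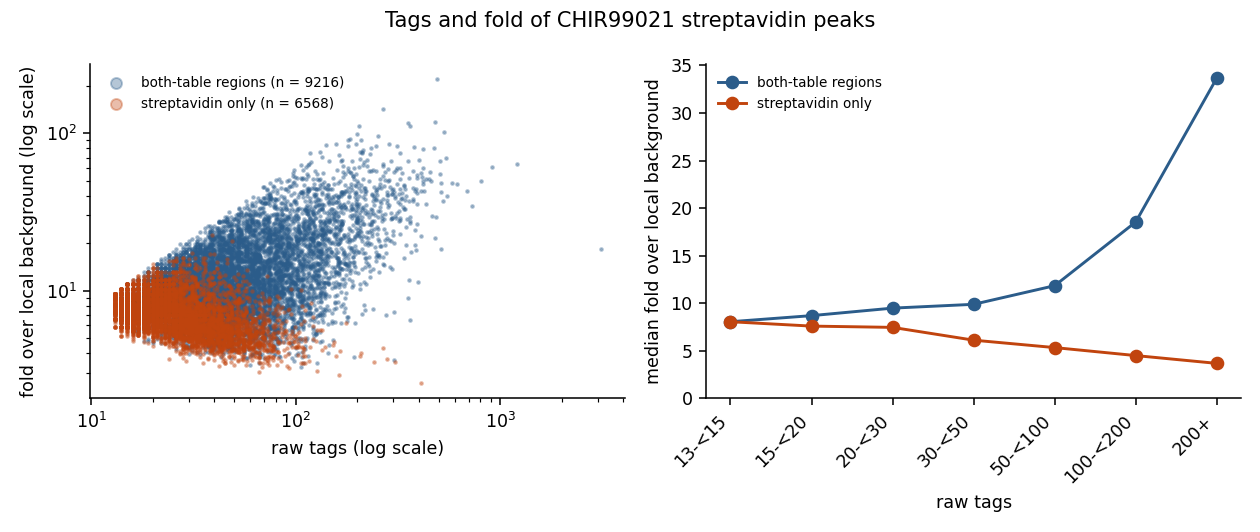
Left, fold over the local background against raw tags (both axes log scale), 1 point per CHIR99021 streptavidin peak in streptavidin-only or both-table regions. Right, median fold by class of raw tags: it falls from 8.05 to 3.67 in streptavidin-only regions and rises from 8.05 to 33.67 in both-table regions.

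The strongest streptavidin-only region by p score was chr5:89004701-89005626 (mm9 coordinates, as throughout). It held 49 tags at 20.60-fold with a score of 259.70. It lay 57.2 kb from the nearest both-table region. Second was chr2:172764014-172766450, a wide peak of 2437 bp with 106 tags at 10.08-fold and a score of 235.06. Chromosome X held the regions at ranks 3 and 5. The region chrX:55271453-55272966 held 55 tags at 12.45-fold, 3.27 kb from a both-table region with 91 anti-FLAG and 80 streptavidin tags. The region chrX:101175321-101177737 held 82 tags at 8.13-fold, 2.30 kb from one with 76 and 44. None of the first 10 had a listed false discovery rate above 0, and their folds ran from 7.56 to 20.60.

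Distances among these 10 ranged widely. The region chr7:78496105-78496783 (40 tags, 17.07-fold) was 541 kb from the nearest both-table region and 286 kb from the nearest anti-FLAG peak. The regions chr6:6282115-6283072 (41 tags, 13.91-fold) and chr7:130083705-130084668 (58 tags, 13.56-fold) were 129 and 171 kb from a both-table region, although the second had an anti-FLAG peak within 3.78 kb. The region chr16:5817066-5818187 (43 tags, 12.45-fold) was 73.9 kb away. In contrast, chr5:148574705-148575285 (38 tags, 17.13-fold) lay 0.456 kb from a both-table region that held 285 anti-FLAG tags, 242 streptavidin tags and 2 DMSO peaks. Likewise chr8:90977390-90979953 (111 tags, 7.56-fold) lay 1.32 kb from one with 180 and 150 tags and 2 DMSO peaks. Some of the strongest regions thus lay close to both-table regions with many tags, and others had no both-table region within 100 kb.

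The highest fold was 22.70, at chr5:73960257-73961199 with 39 tags, 30.2 kb from a both-table region. It was followed by the leading region on chromosome 5, by chr10:41154889-41155426 (31 tags, 17.38-fold) and by the regions of 17.13-fold and 17.07-fold given above. Folds of 15 or more occurred in 21 streptavidin-only regions, which is 0.808% of the 2600 streptavidin peaks at that level. At the lower end, 7 regions tied at the lowest p score of 50.00, of which 6 held 14 tags and 1 held 38 tags over 1377 bp. The 3 of highest fold among them, chr3:127504743-127505332, chr16:96320406-96320995 and chr5:126598977-126599566, each held 14 tags over 590 bp.

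The regions with most tags were of another kind. The first was chr2:98506218-98507868, with 409 tags at 2.58-fold, the lowest fold of all 6568. Next came chr9:35112478-35113368 (305 tags, 3.49-fold), chr11:53953339-53954360 (279 tags, 3.67-fold), chr18:3638268-3639336 (266 tags, 4.34-fold) and chr18:40467541-40468206 (241 tags, 3.53-fold). Together with chr9:24549342-24550218 (208 tags) and chr4:70038963-70039875 (207 tags), both named after their values were seen, they are the 7 regions with at least 200 tags. Their lengths were 666 to 1651 bp, so the tags stood at 227 to 362 per kb, against a 99th percentile of 55.6 over all streptavidin-only regions. Of the 314 both-table streptavidin peaks with at least 200 tags, 1 had a fold under 5. These 7 thus joined very dense tags to some of the lowest folds among streptavidin-only regions. The extremes over all CHIR99021 streptavidin peaks lay in neither set but among the 163 peaks that met only a DMSO peak. They were 7407 tags, 1472 tags per kb and a lowest fold of 1.67. Very dense tags and very low folds were therefore not particular to streptavidin-only regions.

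The longest regions also held many tags, spread over more bases. The leading pair lay side by side on chromosome 9, at chr9:118395514-118399659 (4146 bp, 177 tags, 6.25-fold) and chr9:118385205-118389205 (4001 bp, 158 tags, 3.86-fold), with 6308 bp between them. Within 50 kb on each side of this pair there were 4 both-table regions, 3 anti-FLAG-only regions and 1 DMSO-only region. The nearest both-table region, chr9:118379812-118381267, held 131 anti-FLAG and 85 streptavidin tags and ended 3.94 kb before the pair. No anti-FLAG peak lay in the stretch that the pair spans. The next longest were chr8:109393473-109397322 (3850 bp, 165 tags), chr6:82721353-82724869 (3517 bp, 122 tags) and chr1:173341407-173344915 (3509 bp, 111 tags), with folds of 4.11, 4.93 and 4.97.

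Most streptavidin-only regions lay more than 10 kb from a both-table region. The median free distance to the nearest both-table region was 70.1 kb (67.2 to 72.9), with a middle 50% from 21.7 to 167 kb. Within 1 kb there were 200 of them (3.05%, interval 2.64 to 3.49%), within 10 kb 969 (14.8%, 13.9 to 15.6%) and within 100 kb 3928 (59.8%, 58.6 to 61.0%). Both-table regions lay closer to each other, at a median of 51.3 kb with 21.9% (21.0 to 22.8%) within 10 kb. DMSO-only regions lay farther from them, at a median of 87.2 kb with 9.82% (9.27 to 10.4%) within 10 kb. Anti-FLAG-only regions stood close to streptavidin-only ones, with a median of 68.9 kb and 13.8% (12.9 to 14.6%) within 10 kb. Counting only both-table regions whose streptavidin p score was at least 100, the median distance of streptavidin-only regions was 116 kb. The classes differ in number and in length, and the difference between them was not tested.

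Regions with more tags tended to lie nearer to both-table regions, though weakly (Spearman's rho of distance with tags −0.17 over 6568 regions). With p score the rho was −0.05. The median distance was 107 kb for streptavidin-only regions of 13 or 14 tags, 63.1 kb at 20 to under 30, and 43.6 kb at 50 to under 100. Anti-FLAG-only regions held at least 14 tags and came from a deeper library, so raw-tag classes are not alike between the libraries. Over these classes they went the same way, from 99.6 to 69.2 and 50.6 kb. The 7 regions of 200 or more tags fell outside this order, at a median of 256 kb. By fold the distance rose from 45.5 kb at 4 to under 5 to 86.2 kb at 8 to under 10, while the 91 regions with folds under 4 stood at 81.7 kb. Seen from the distance, regions within 1 kb of a both-table region held a median of 27.5 tags over 847.5 bp, and 30.0% of them (23.7 to 36.9%) passed a false discovery rate of 1%. Regions between 100 kb and 1 Mb away held 20 tags over 702 bp, and 21.9% (20.4 to 23.6%) passed.

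**Figure D4:**
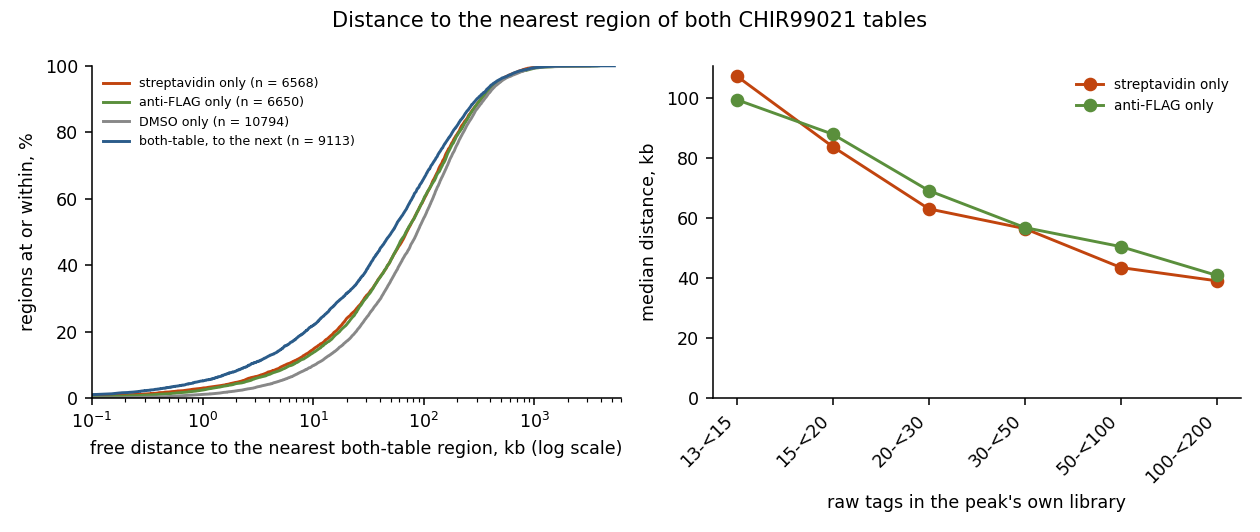
Left, cumulative share of regions (%) by free distance to the nearest both-table region (kb, log scale), for streptavidin-only, anti-FLAG-only and DMSO-only regions and for both-table regions to their next one. Right, median distance (kb) by raw tags in each region's own library, not scaled to depth. For streptavidin-only regions it falls from 107 to 39.1 kb and for anti-FLAG-only regions from 99.6 to 40.9 kb, up to 200 tags.

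Some regions only just met the rule. The nearest regions to a both-table region were chr5:3579077-3579627 and chr5:64822530-64823421, each 0.002 kb away, then chr9:100480453-100481425 at 0.004 kb, and chr3:37566488-37567336 and chr6:66415076-66415824 at 0.011 kb. Their folds were between 5.44 and 7.99. Measured to any anti-FLAG peak, the smallest gap was 1 bp, at chr9:69560694-69562563 (84 tags, 6.01-fold) beside an anti-FLAG-only peak of 56 tags. It was followed by chr9:100480453-100481425 with a gap of 4 bp (37 tags) beside an anti-FLAG peak of 496 tags, and by chr1:63319231-63320273 with 6 bp (29 tags). The region on chromosome 6 came next at 11 bp, and chr13:13762818-13763566 at 13 bp (21 tags, 11.71-fold). Just outside the rule, the peaks with the smallest overlap shared 1 bp (chr6:108208432-108209390, 29 tags, 9.86-fold), 3 bp (chr3:57408258-57408891, 21 tags), 8 bp (chr7:148196201-148197258, 43 tags) and 11 bp (chr2:77345284-77346068 with 21 tags and chr18:38837820-38838827 with 34 tags). The tags of the 5 inside ran from 20 to 84 and those of the 5 outside from 21 to 43, so the ranges overlapped.

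Such near misses were few. An anti-FLAG peak lay within 1 kb of 276 regions (4.20%, 3.73 to 4.72%), within 500 bp of 153 and within 200 bp of 58. Of the 276, 185 had as nearest anti-FLAG peak one that belonged to a both-table region, and 89 had an anti-FLAG-only peak, so that each capture had called its own peak side by side. A DMSO peak lay within 1 kb of 121 regions (1.84%, 1.53 to 2.20%). The median distance was 37.1 kb to an anti-FLAG peak of any kind and 50.1 kb to a DMSO peak.

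Most streptavidin-only regions had no other one within 10 kb, while 621 (9.45%) had. The median distance to the next one was 97.9 kb. With gaps of up to 10 kb joined, 5947 stood alone, 276 groups had 2 and 19 had 3. The 3 groups of 4, named after their values were seen, lay at chr6:140566090-140573783 (122 tags in all), chr16:4549147-4568851 (189 tags) and chr18:32297070-32318920 (108 tags), with folds between 4.04 and 10.2. Of these, the group on chromosome 6 was 8.25 kb from a both-table region, and the other two were 249 and 134 kb away.

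Of 2513 windows of 1 Mb that held any region, 2070 held a streptavidin-only one, with 2.61 on average. The fullest were on chromosome 1 (91000001 to 92000000) with 13, beside 4 both-table regions, on chromosome 11 (102000001 to 103000000) with 12, beside 8, and on chromosome 17 (29000001 to 30000000) with 11, beside 15. That window is 1 of 8 with 11, and of these it is the one with most both-table regions. The 8 held from 3 to 15 of them. Windows without a both-table region averaged 1.14 streptavidin-only regions, those with 4 to 7 averaged 3.35 and those with 8 or more 4.58. Across the 2513 windows Spearman's rho with both-table regions was 0.49, with anti-FLAG-only regions 0.52 and with DMSO-only regions 0.54. The windows share the same libraries, chromosomes and mappable sequence, so these values are a description only.

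By chromosome, streptavidin-only regions were densest on chromosomes 9 and 11, with 3.74 and 3.49 per Mb against an autosomal median of 2.63. Both-table regions were also densest there, with 4.56 and 4.34. As a share of the streptavidin peaks of each autosome they varied little, from 38.4% on chromosome 4 to 45.3% on chromosome 12. On chromosome X there were 140, or 0.868 per Mb, which is 0.330 times the autosomal median. Both-table regions on X stood at 0.518 times theirs. Streptavidin-only regions made up 30.4% of the streptavidin peaks on X (26.3 to 34.9%), against 41.5% over the autosomes, and anti-FLAG-only regions 31.8% of the anti-FLAG peaks on X (27.6 to 36.2%), against 41.7%. On X the streptavidin-only regions held a median of 18 tags at 8.16-fold, and on autosomes 22 tags at 7.32-fold. Streptavidin peaks of both-table regions differed in the same direction, with 32 tags at 13.91-fold on X and 46 tags at 10.59-fold on autosomes. Among streptavidin peaks with a p score under 100, the streptavidin-only share on X was 0.865 times the autosomal share, a limit set after seeing the data, against 0.733 times over all peaks. There was none on chromosome Y, where the CHIR99021 streptavidin table had no peak.

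**Figure D5:**
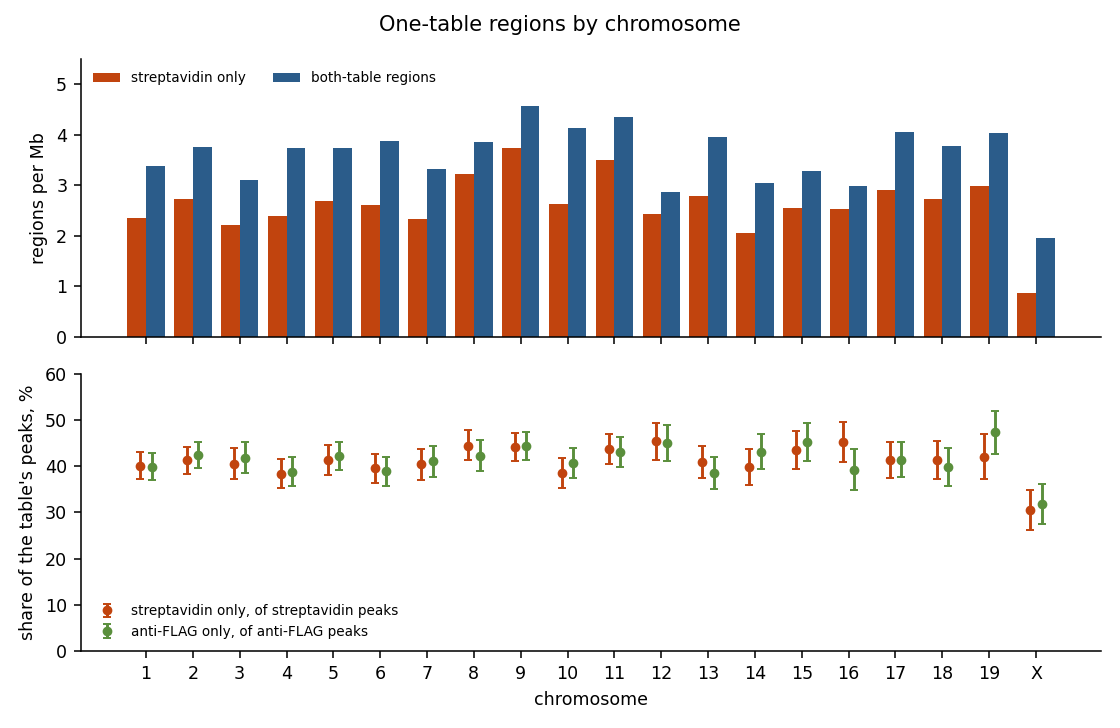
Top, streptavidin-only and both-table regions per Mb on each autosome and X. Bottom, streptavidin-only regions as a share of streptavidin peaks and anti-FLAG-only regions as a share of anti-FLAG peaks (%, points with exact 95% intervals). Chromosome X is lowest in both panels among those drawn, with 0.868 streptavidin-only regions per Mb and a share of 30.4%.

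The regions found only by anti-FLAG were of like size to the streptavidin-only ones but had lower listed false discovery rates, each in its own library. There were 6652 of them, which is 41.4% of the 16069 anti-FLAG peaks. Their medians were 25 raw tags, 686 bp and 6.91-fold, against 22 raw tags, 745 bp and 7.32-fold. Raw tags also depend on depth. Scaled to the unique tags of each library, the medians were 1.55 for anti-FLAG-only and 1.84 for streptavidin-only regions, which is the reverse order. The median false discovery rate was 1.22% against 2.41%, and 41.1% (39.9 to 42.2%) against 23.7% passed a rate of 1%. The highest rates listed were 2.51% for anti-FLAG-only and 4.91% for streptavidin-only regions, at the same p-value cutoff. Median p scores were close, at 61.9 and 60.5. A p score of at least 100 was reached by 10.3% of anti-FLAG-only regions (9.53 to 11.01%) and by 6.62% of streptavidin-only ones (6.03 to 7.25%), and the highest scores were 1357.36 and 259.70. P scores and false discovery rates belong to their own table, and p scores depend on depth and on the fragment shift d, which were larger and smaller, in that order, in the anti-FLAG library, so the shares are set side by side without a test.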

How the data were processed

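β-Catenin ChIP-seq peaks of 3 libraries were used. The authors called them with MACS on ELAND-format alignments against an input library, with a p-value cutoff of 1.00e-05, per the file headers. Coordinates are on mm9, as the submitters' processing notes state. The aligner and the MACS version are not given in the sources used here. The fragment shift d was 185, 214 and 30 bp for anti-FLAG, CHIR99021 streptavidin and DMSO, per the file headers.

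For each peak the deposited tables give the raw tag count, the length in bp, the fold (a ratio to local background), the p score and, in percent, the false discovery rate. All are the authors' values for single peaks, as deposited. They were compared within a table, except where anti-FLAG-only regions are set beside streptavidin-only ones. From them, intervals were merged with touching allowed, classes were counted, and distances were taken as free bases between intervals on the same chromosome. Shares carry exact (Clopper-Pearson) 95% intervals and medians order-statistic intervals. The merging and distance code was tested on simulated intervals.

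The regions, limits and named regions were chosen with earlier results of these data known. Named regions were the 10 of highest p score, the 5 with most tags, the 5 longest, the 5 of highest fold, the 5 nearest to and 5 farthest from a both-table region, the 5 nearest to an anti-FLAG peak, the 3 of lowest p score and the 3 fullest windows. No region consisted of more than 1 peak. The gene, miRNA and promoter tables at hand are of another build than the peaks, so genes, motifs and sequences were not analysed here. The input libraries were not analysed on their own. Tables were handled in Python 3.11.15 with pandas 2.3.3 and numpy 2.4.6, intervals of shares came from scipy 1.17.1, and plots from matplotlib 3.10.9.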

Additional observations from a re-analysis of the deposited data

How the results depend on the processing

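The number of streptavidin-only regions, 6568, stayed between 6109 and 7353 when gaps of up to 1000 bp were merged, when 50% reciprocal overlap or summit distance decided, when DMSO intervals of 400 bp were used, and at 6731 without the DMSO table. A limit on the streptavidin table alone left 1558 at a false discovery rate of 1%, 602 at a fold of 10 and 435 at a p score of 100. The same limits on all 3 tables gave 2622, 1727 and 1400, since weaker partners then drop out.

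The median distance of 70.1 kb became 116 kb to regions with a streptavidin p score of at least 100 and 83.0 kb to regions without a DMSO peak, where fewer targets are counted. It was 61.9 kb for regions passing a false discovery rate of 1%, 83.4 kb at a fold of 10, 65.96 kb at a p score of 100 and 57.2 kb with at least 20 tags. The share within 10 kb, 14.8%, was 13.4% by midpoints, 13.5% by summits, 10.2% and 12.5% to those 2 sets of targets, and 18.0%, 11.5%, 18.4% and 18.5% for those 4 sets of regions. Median tags, 47.8% of those in both-table regions, were 69.7% per kb and 60.4% at a false discovery rate of 1%, where the median length was 947.5 bp. At a false discovery rate of 5% the share of regions that passed was 100%, against 23.7% at 1%. The highest rate listed for any streptavidin peak was 4.91%, so no peak could fail the 5% limit. The X ratio of 0.330 was 0.733 as a share of streptavidin peaks, 0.227 with at least 20 tags and 0.865 as a share among peaks with a p score under 100. The last, and leaving out the 7 regions of most tags, were added after seeing the data. Of 45 alternatives, 18 gave a value inside the 95% interval of the reported one or, for counts, within 1.5 times of it. Some of the 18 could not have differed and so test nothing. Scaling the tags to depth divides both sets of peaks by the unique tags of the same library. The lowest false discovery rate in a region is that of its only peak. No paired analysis was possible because a group never held more than 1 library. No library was thinned to a common depth, so the effect of depth on the calls was not tested, and the DMSO depth is unknown.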

Other observations

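The streptavidin-only regions farthest from a both-table region lay on chromosomes 18, X and 2. The region chr18:90750094-90750900 (25 tags, 5.79-fold) was 3159 kb from the nearest both-table region and chr18:90491741-90492312 (15 tags, 7.32-fold) was 2900.25 kb from it. On chromosome X, chrX:117406689-117407346 (17 tags, 7.19-fold) and chrX:116575402-116575946 (15 tags, 9.52-fold) were 2426 and 2144 kb from one. Anti-FLAG peaks lay nearer, at 357 and 98.5 kb from the regions on chromosome 18 and at 651 and 159 kb from those on X. A DMSO peak lay 78.7 and 179 kb away on chromosome 18, and 2712 and 3543 kb away on X. The region chr2:47091958-47092544 (14 tags, 7.32-fold) was 2063 kb from a both-table region and 1499.6 kb from any anti-FLAG peak, but 49.6 kb from a DMSO peak. In all, 32 streptavidin-only regions were more than 1 Mb from a both-table region. They held a median of 18 tags over 656.5 bp, at 8.05-fold. There were 163 windows of 1 Mb with a streptavidin-only region and no both-table region.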
